A study of Mus musculus with 4 samples.

Results

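Sgk1, the serum- and glucocorticoid-induced kinase, was described together with 8 genes of salt and fluid transport in the uterus of early pregnancy. They are its relatives Sgk2 and Sgk3, the ubiquitin ligase gene Nedd4l, the sodium channel genes Scnn1a, Scnn1b and Scnn1g, the chloride channel gene Cftr and the sodium pump subunit gene Atp1b1. These 9 genes, of 54152 in the deposited table, were chosen by name. Sgk1 itself was chosen by its large difference between the same libraries, so the values of the 9 genes are given as a description, without p-values, and their calls are counted only beside the share called among all genes. The tissue was whole uterus of C57 mice on day 4 of pregnancy, and P38α ff and P38α dd label 2 libraries each. By the title of the series these are wild type and knockout of p38α, a stress-activated kinase. The sources used here give neither the Cre driver, nor the age of the mice, nor how many mice stand behind a library. Below, ff and dd stand for these labels only, and ± is the SD over the 2 libraries of a group.

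ENaC, the epithelial sodium channel, lets sodium enter epithelial cells from the lumen, and water follows. Its α, β and γ subunits are encoded by Scnn1a, Scnn1b and Scnn1g. The Na/K-ATPase at the opposite cell face pumps that sodium out, and CFTR lets chloride, and fluid with it, leave towards the lumen. The ligase encoded by Nedd4l removes ENaC from the cell surface, and SGK1 phosphorylates that ligase and so keeps ENaC in place. In the uterus of early pregnancy, absorption of luminal fluid is known to accompany closure of the lumen around the embryo, and SGK1 is known as a kinase whose level and activity matter for fertility.

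The libraries held between 24619850 and 32451670 counts, and mitochondrial transcripts took 5.24% to 6.97% of them. Mapk14, the gene of p38α, had 92.4 and 87.0 CPM (counts scaled to the size of the library, with TMM factors) in the libraries labelled ff and 105.0 and 113.2 CPM in those labelled dd, so the targeted gene was not lower in dd. Its log2 fold change was 0.28 (SE 0.09) and missed the threshold of 0.05 in edgeR's quasi-likelihood test (adjusted p = 0.12). A count over the whole gene does not check for the loss of a few exons, and every direction below rests on the labels. Among all genes, 838 of 18530 tested genes were higher in dd and 716 lower, or 751 and 1020 with library size as the only scaling. Markers of epithelium, stroma, endothelium and myometrium were all present. The 15 epithelial markers summed to 1347 and 1619 CPM in ff and to 3191 and 3707 CPM in dd, and 7 of them passed the test as higher. Of 13 stromal markers 6 passed as lower, and their sum was 15590 to 17590 CPM in ff and 8933 to 12250 CPM in dd. Of 10 endothelial markers 9 passed as lower, with sums of 1539 and 1806 CPM in ff and of 823.6 and 829.1 CPM in dd. In whole tissue, more cells of a type and more RNA per cell cannot be told apart. The part of these shifts in the values below was not tested, beyond the ratios to epithelial markers given further on.

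Sgk1 lies on chromosome 10 (21882184 to 21999903, plus strand, mm10). RefSeq gives it 6 start sites, and the promoter table used here (build GRCm38.p6) holds a 300-base window around each, from 250 bases before the start to the first 50 bases after it. Because Sgk1 is known as a target of steroid receptors, the windows were searched on both strands for the palindromic steroid response element, AGAACA and TGTTCT with 3 bases of any kind between them. The same letters occurred in 3 of 32851 windows of all genes (0.00913%). One of these was the window of Sgk1 start 5, counting along the plus strand. The others belonged to Acnat2 and Gm35041, which had at most 4 counts in any library. The windows of Sgk1 starts 5 and 6 and that of Cftr are printed 5′ to 3′ to show this element beside 2 windows that lack it. Capitals mark the element and single copies of its arm TGTTCT, read on either strand.
Sgk1 start 5, chr10:21993640-21993939, plus strand: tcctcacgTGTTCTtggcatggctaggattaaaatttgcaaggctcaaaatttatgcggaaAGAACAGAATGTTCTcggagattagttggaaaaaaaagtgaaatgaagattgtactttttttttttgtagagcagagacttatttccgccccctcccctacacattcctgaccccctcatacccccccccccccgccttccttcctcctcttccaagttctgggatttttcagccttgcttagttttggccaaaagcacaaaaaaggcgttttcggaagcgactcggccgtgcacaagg
Sgk1 start 6, chr10:21994416-21994715, plus strand: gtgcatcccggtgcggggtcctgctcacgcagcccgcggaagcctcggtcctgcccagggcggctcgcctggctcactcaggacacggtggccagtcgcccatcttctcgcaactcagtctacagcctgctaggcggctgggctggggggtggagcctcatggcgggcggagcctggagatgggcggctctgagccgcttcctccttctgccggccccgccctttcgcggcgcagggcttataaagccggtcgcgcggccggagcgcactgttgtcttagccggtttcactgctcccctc
Cftr, chr6:18170437-18170736, plus strand: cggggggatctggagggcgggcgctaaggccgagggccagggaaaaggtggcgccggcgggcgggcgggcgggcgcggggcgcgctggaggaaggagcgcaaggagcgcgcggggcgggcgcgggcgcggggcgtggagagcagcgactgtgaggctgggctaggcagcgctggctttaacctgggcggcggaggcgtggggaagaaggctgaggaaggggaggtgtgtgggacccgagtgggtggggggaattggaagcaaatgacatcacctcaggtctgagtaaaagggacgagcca

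The element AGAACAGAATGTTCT stood at chr10:21993701-21993715, 175 bases before start 5 and 951 bases before start 6. The arm TGTTCT alone is common, being in 19.0% of all windows. Beside the 2 copies inside the element it was found once more in that window and once each in the windows of Sgk1 starts 1 and 4. The table held windows for 5 of the 9 genes, namely Sgk1, Cftr, Atp1b1, Scnn1b and Scnn1g. In the windows of Cftr, Atp1b1, Scnn1b and Scnn1g neither the element nor its arm was found. An estrogen response element, GGTCA and TGACC with 3 bases between them, was in 0.07% of all windows, and an AP-1 site, TGANTCA, in 7.81%. Neither was found in the 10 windows of these 5 genes. Sgk2, Sgk3, Nedd4l and Scnn1a were not in the table. A match describes letters only, and counts per gene do not show which start was used.

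Sgk1, the kinase itself, was read 1369 and 1401 times in ff, against 5036 and 7339 times in dd. This corresponded to 41.1 and 45.0 CPM in ff and to 213.1 and 242.3 CPM in dd. Both dd libraries stood far above both ff libraries, and replicates of a group lay close together. The mean was 5.29-fold higher in dd, a log2 difference of 2.40 (SE 0.11, n = 2 per group). Leaving out any 1 library gave between 2.31 and 2.50. The other settings tried gave between 2.32 and 2.40.

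**Figure D1:**
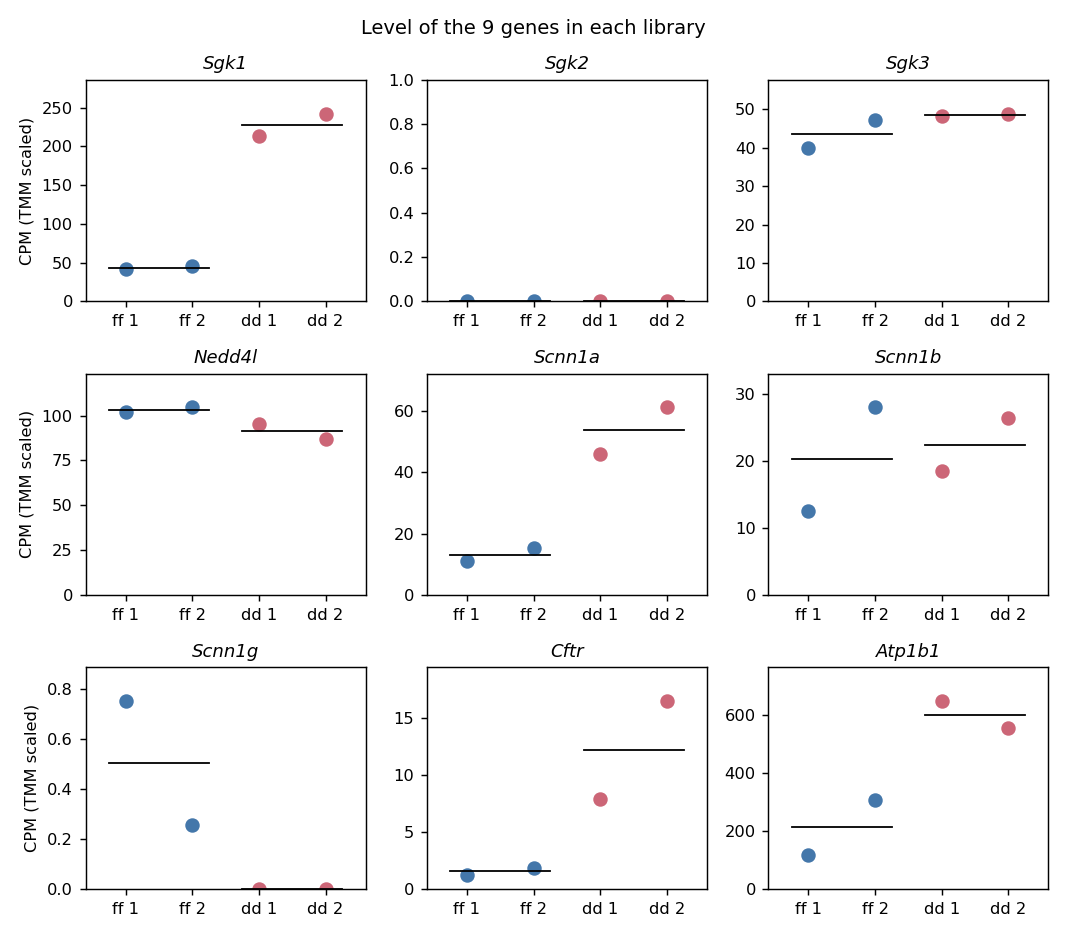
Level of each of the 9 genes in CPM (TMM-scaled, linear axes from 0) in the 2 ff libraries (blue) and the 2 dd libraries (red), with black lines at the group means. Sgk1, Scnn1a, Cftr and Atp1b1 are higher in both dd libraries, Scnn1b overlaps, Scnn1g has counts only in ff, and Sgk2 has none.

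The related kinases differed far less or were not read. Sgk3 (chromosome 1, 9798107 to 9900845), an isoform that is known to act at endosomes, had 40.0 and 47.2 CPM in ff and 48.2 and 48.9 CPM in dd. The dd values lay just above the higher ff value, and the log2 difference was 0.16 (SE 0.11). It ranged from 0.04 without ff replicate 1 to 0.28 without ff replicate 2. Sgk2 (chromosome 2, 162987330 to 163014127), known from liver, pancreas and kidney, had no count in any of the 4 libraries. A count of 0 allows up to 3 counts over a group, or 0.0466 CPM in ff and 0.0556 CPM in dd, for counting error only.

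Compared per length in FPKM (fragments per kilobase of exon, scaled to library size), Sgk1 was also the leading SGK gene in ff. Its FPKM was 8.39 and 9.15 in ff against 2.80 and 3.29 for Sgk3, and 43.2 and 49.6 in dd against 3.35 and 3.43. Sgk1 thus made up 75.0% and 73.5% of the summed FPKM of the 3 kinases in ff and 92.8% and 93.5% in dd. These shares depend on the length used. The deposited FPKM divide by all merged exons of a gene (4903 bases for Sgk1 and 14311 for Sgk3). With the longest coding transcript instead (3096 and 3779 bases), Sgk1 made up 55.7% and 53.8% in ff and 84.4% and 85.8% in dd. The share was higher in both dd libraries with either length.

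Nedd4l, the ligase that SGK1 restrains, had 102.1 and 104.6 CPM in ff and 95.2 and 87.2 CPM in dd. Both dd values lay below both ff values by a small margin, with a log2 difference of −0.18 (SE 0.09). The settings tried gave −0.12 to −0.26, and the value furthest from 0 came with library size as the only scaling. In FPKM, Sgk1 stood at 1.45 and 1.55 times Nedd4l in ff and at 8.06 and 10 times Nedd4l in dd. Per longest coding transcript the ratio was 1.01 and 1.08 in ff and 5.63 and 6.99 in dd. Nedd4l spans 64887705 to 65217828 on chromosome 18, and 277 of its exonic bases are shared with A330084C13Rik on the opposite strand, which had 6 to 17 counts.

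The 3 sodium channel subunit genes each behaved differently. Scnn1a (chromosome 6, 125320659 to 125344943), the α subunit that the channel cannot do without, was read 370 and 476 times in ff, against 1088 and 1850 times in dd. In CPM these were 11.1 and 15.3 in ff and 46.1 and 61.1 in dd, without overlap. The mean was 4.06-fold higher in dd (log2 difference 2.02, SE 0.22). This difference was 1.81 without ff replicate 1 or dd replicate 2, and 2.27 without ff replicate 2.

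Scnn1b (chromosome 7, 121865038 to 121918514), the β subunit gene, had 12.6 and 28.1 CPM in ff and 18.5 and 26.4 CPM in dd. The ff libraries lay on either side of both dd libraries. The log2 difference of 0.15 (SE 0.41) turned with the library left out, being −0.32 when ff replicate 1 and 0.84 when ff replicate 2 was dropped, and 0.39 and −0.13 when dd replicate 1 or 2 was. No direction can be given for it.

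Scnn1g (chromosome 7, 121734479 to 121768475), the γ subunit gene, was nearly silent, with 25 and 8 counts in ff and none in dd. It lies 96.6 kilobases before Scnn1b on the same strand, and that neighbour was read in all 4 libraries. Scnn1g did not pass the filter on low counts and was not fitted. Against a floor of 3 counts over the dd group it was at least 9.2-fold lower in dd. That bound became 4.62 when ff replicate 1 was dropped, and 5.17 or 4.03 when dd replicate 1 or 2 was, each resting on a few reads.

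The proportion of α to β transcripts therefore differed between the groups. In FPKM, Scnn1a stood at 0.564 and 0.347 of Scnn1b in the ff libraries and at 1.58 and 1.47 times Scnn1b in the dd libraries. The β gene led in both ff libraries and the α gene in both dd libraries. With the longest coding transcript as the length, the ratios were 0.627 and 0.386 in ff and 1.76 and 1.64 in dd. Scnn1g reached 0.251 and 0.0857 FPKM in ff, so its level stayed far below those of the α and β genes in every library.

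**Figure D2:**
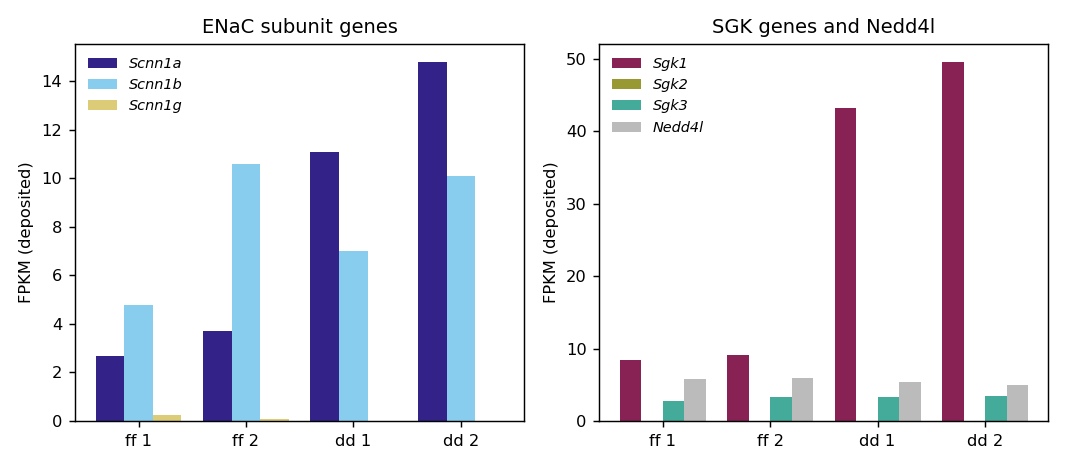
Deposited FPKM of the 3 ENaC subunit genes (left) and of the SGK genes with Nedd4l (right) in each library, as bars from 0. Scnn1b is the tallest ENaC bar in both ff libraries and Scnn1a in both dd libraries. Sgk1 reaches 43.2 and 49.6 in dd against 8.39 and 9.15 in ff, while Sgk3 and Nedd4l stay between 2.80 and 5.91.

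Cftr (chromosome 6, 18170687 to 18322768), the chloride channel gene, was low in ff with 41 and 57 counts and had 186 and 499 counts in dd. In CPM these were 1.23 and 1.83 in ff and 7.87 and 16.5 in dd. Both dd libraries were higher, although they differed from each other by 2.09-fold. The mean was 7.95-fold higher in dd (log2 difference 2.99, SE 0.46), with 2.36 without dd replicate 2 and 3.43 without dd replicate 1. Per length its level stayed small. In dd it was 1.01 and 2.13 FPKM, where Scnn1a was 11 and 6.97 times as high, against 17.0 and 15.7 times in ff. It shares 129 exonic bases with Gm15592 on the opposite strand, which had no count.

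Atp1b1 (chromosome 1, 164437109 to 164458355, minus strand), the β1 subunit that brings the sodium pump to the membrane, was the most abundant of the 9 genes. It had 118.9 and 308.5 CPM in ff and 648.9 and 556.5 CPM in dd. Both dd libraries were above both ff libraries, but ff replicate 2 was 2.59-fold above ff replicate 1. The mean was 2.82-fold higher in dd (log2 difference 1.5, SE 0.46), with 0.97 without ff replicate 1 and 2.34 without ff replicate 2. Nme7 overlaps 575 of its exonic bases on the opposite strand and stayed between 18.1 and 19.0 CPM in all libraries. Scnn1b differed similarly between the ff libraries (2.23-fold), in the same direction as Atp1b1. Among 12430 tested genes with a mean of at least 5 CPM, the median fold between the ff libraries was 1.1, and 2.24% differed by more than 2-fold. The summed epithelial markers differed by 1.2-fold in the same direction, and Sgk1 by 1.09-fold. Some genes, named after their values were seen, differed more in that direction, with 2.91-fold for the epithelial marker Krt19, 6.2-fold for the pump regulator gene Fxyd4 and 3.19-fold for Pdzk1ip1. Others, also named after their values were seen, differed the other way. Among them were the epithelial marker Spint1 (45.15 CPM in ff replicate 1 and 30.82 in ff replicate 2) and the transporter gene Slc26a6 (56.21 and 15.6 CPM). The difference between the ff libraries thus had no single direction among such genes.

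Of the 9 genes 7 passed the filter on low counts. Among them 3 (Sgk1, Scnn1a and Cftr) were called higher by edgeR at an adjusted p under 0.05 and none was called lower, beside 4.52% called higher, 3.86% called lower and 8.39% called in either direction among all 18530 tested genes. In 5 the dd libraries lay above the ff libraries (31.6% of all tested genes) and in 1, Nedd4l, below them (31.3%). Which genes were called changed with the libraries: Sgk1 alone without ff replicate 1, Sgk1 and Scnn1a without dd replicate 2, and Sgk1, Scnn1a and Atp1b1 without ff replicate 2. Without the filter Atp1b1 was called higher and Scnn1g lower as well, and DESeq2 also called Scnn1g lower. Since Sgk1 was taken from this comparison and the other genes were chosen with its results known, nothing is read from these counts.

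**Figure D3:**
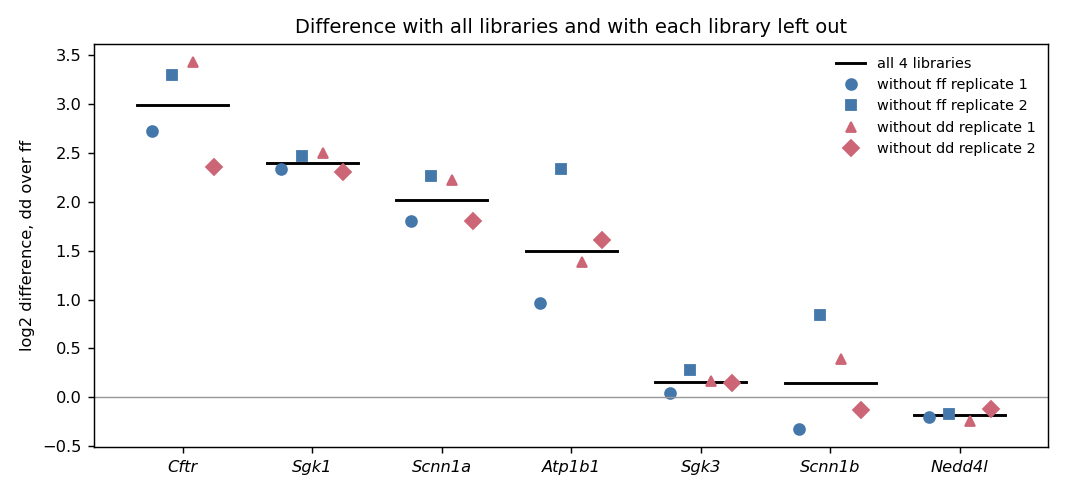
Log2 difference of dd over ff for the 7 genes that passed the filter, with all 4 libraries (black lines) and with each library left out (symbols, blue where an ff library and red where a dd library was left out). Sgk1 stays between 2.31 and 2.50, while Scnn1b crosses 0 and Atp1b1 spans 0.97 to 2.34.

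By level per length the order in ff was Atp1b1 (69.3 ± 43.3 FPKM, SD, n = 2), Sgk1 (8.77 ± 0.537), Scnn1b (7.70 ± 4.14), Nedd4l (5.85 ± 0.0901), Scnn1a (3.19 ± 0.706), Sgk3 (3.04 ± 0.351), Cftr (0.197 ± 0.054), Scnn1g (0.168 ± 0.117) and Sgk2 at 0. Sgk1 and Scnn1b, Scnn1b and Nedd4l, Scnn1a and Sgk3, and Cftr and Scnn1g were neighbours whose ff values overlapped. In dd the order was Atp1b1 (195.0 ± 19.7 FPKM), Sgk1 (46.4 ± 4.54), Scnn1a (13 ± 2.66), Scnn1b (8.53 ± 2.17), Nedd4l (5.16 ± 0.284), Sgk3 (3.39 ± 0.058) and Cftr (1.57 ± 0.794). No neighbours overlapped in dd. Scnn1a thus moved from the fifth place to the third. With the longest coding transcript as the length it moved from the sixth to the third, and Sgk3 took the fourth place in both groups. By that length Scnn1b had rank 5 in ff and 6 in dd, and Nedd4l had rank 3 in ff. Sgk1 (13.9 CPM per kilobase), Nedd4l (13.3) and Sgk3 (11.5) then lay close together in ff.

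Since epithelial markers were higher in dd, each level was also set against their sum in the same library. Sgk1 stood at 30.5 and 27.8 CPM per 1000 CPM of epithelial markers in ff and at 66.8 and 65.4 in dd, a ratio of 2.27 where the CPM themselves gave 5.29. The ff and dd values of Scnn1a (8.25 and 9.44 against 14.4 and 16.5) and of Cftr (0.914 and 1.13 against 2.47 and 4.44) did not overlap on this scale either. For Atp1b1 they did, with 88.3 and 191.0 in ff and 203.0 and 150.0 in dd. Sgk3, Nedd4l and Scnn1b were lower in dd on this scale, at 0.481, 0.38 and 0.485 of the ff mean. Their CPM had hardly differed, so these lower values follow the larger marker sum. The ratio does not show in which cells a gene was read.

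**Figure D4:**
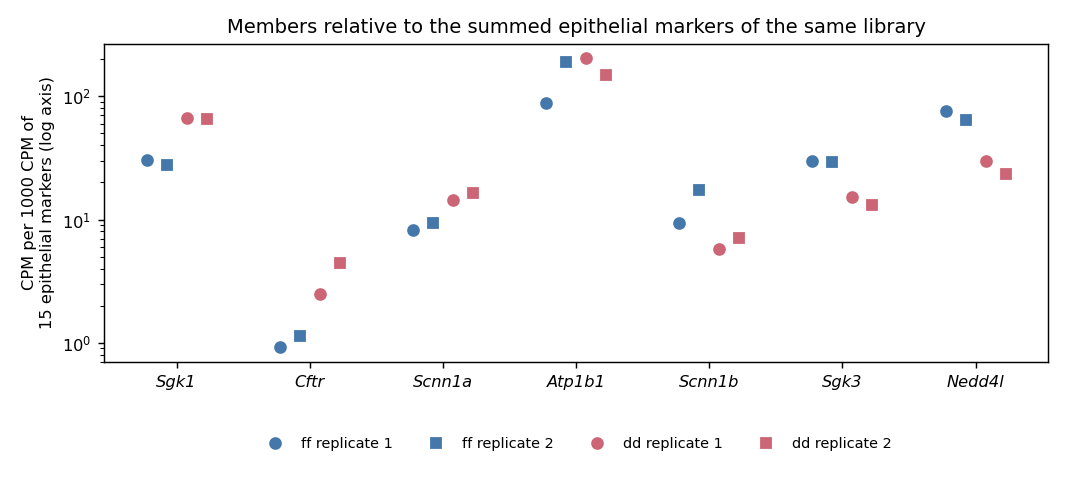
CPM of 7 genes per 1000 CPM of the 15 epithelial markers in the same library, on a log axis, for the ff (blue) and dd (red) libraries. Sgk1, Cftr and Scnn1a remain higher in both dd libraries, Atp1b1 overlaps, and Scnn1b, Sgk3 and Nedd4l are lower.

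Tested genes with a mean of at least 5 CPM over the 4 libraries were compared with Sgk1, leaving out loci with Gm, Rik, AC or AL names. The 5 among them whose log2 CPM (pseudocount 0.5) correlated best with that of Sgk1 were Ttc1, Lgi3, Ddx55, Hdac2 and Adnp2. Pearson's r was at least 0.99983 for each. Of 11949 genes compared, 348 had an r above 0.99, and with 2 libraries a group such an r describes little more than a difference between tight groups. In size these genes were unlike Sgk1, with log2 changes of 0.35 for Ttc1, 0.18 for Ddx55, 0.45 for Hdac2 and 0.09 for Adnp2. Lgi3, a secreted leucine-rich protein gene, was the exception at 0.811 and 0.963 CPM in ff and 9.02 and 10.9 CPM in dd (log2 3.48).

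Around these genes, 124 others of 9 groups were examined, from steroid receptors to scaffold proteins. Of the 111 that passed the filter, 15 rose and 2 fell in edgeR's quasi-likelihood test (15.3% against 8.39% of all genes). Their median log2 fold change was 0.07, beside 0.0 over all tested genes. With 1 library left out, the higher and lower calls among them were 0 and 0 without ff replicate 1, 14 and 5 without ff replicate 2, 7 and 0 without dd replicate 1, and 2 and 0 without dd replicate 2. Epithelial markers (median log2 1.01) were higher in the same libraries, and stromal (−0.65) and endothelial (−0.98) markers lower. The lists were chosen with earlier results of these data known. Atp1a4, among the higher calls, passed the filter only through its dd counts (24 and 62, against 0 and 1 in ff). Nothing is therefore read from the share called. The calls of each list below stand beside 4.52% called higher and 3.86% called lower among all tested genes.

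Upstream of Sgk1, the receptors for its best-known steroid inducers gave no call. Nr3c1, the glucocorticoid receptor gene, had 71.8 and 72.1 CPM in ff and 71.7 and 68.7 CPM in dd. Nr3c2, the mineralocorticoid receptor gene, had 2.97 and 4.17 CPM in ff and 4.32 and 4.16 CPM in dd. Neither passed edgeR's test (adjusted p = 0.799 and 0.574). Hsd11b2, the enzyme that inactivates glucocorticoid and so shields the mineralocorticoid receptor, fell from 241.7 ± 36.7 to 150.2 ± 1.78 CPM (log2 −0.69, SE 0.13, edgeR adjusted p = 0.047). Pgr, the progesterone receptor gene, rose 1.41-fold, and Fkbp4, a co-chaperone of steroid receptors, rose 1.59-fold. These 3 were the calls among 8 genes (median 0.29). All 3 lost them without any 1 library, with edgeR adjusted p of 0.0663 to 0.145 without ff replicate 1, 0.0751 to 0.0904 without ff replicate 2, 0.0922 to 0.126 without dd replicate 1 and 0.106 to 0.139 without dd replicate 2. Pgr was also lost with library size as the only scaling (0.0544).

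Among 17 kinases and phosphatases that activate or restrain SGK, the catalytic subunit gene Pik3cb rose from 19.8 ± 2.45 to 38.5 ± 0.0933 CPM (log2 0.96). Inpp5d, a lipid phosphatase of blood cells, fell from 27.4 ± 0.102 to 18.3 ± 0.499 CPM (log2 −0.58), and macrophage markers were lower in the same libraries (3 of 6 called, sums of 267.0 and 287.6 CPM in ff and of 164.1 and 159.1 CPM in dd). The list's median was 0.0. Both calls were lost without ff replicate 1 (edgeR adjusted p of 0.0781 to 0.146), dd replicate 1 (0.065 to 0.136) and dd replicate 2 (0.0741 to 0.121), and Inpp5d also without ff replicate 2 (0.101).

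None of 15 SGK substrates and partners in channel turnover passed edgeR's test in either direction (median 0.13). Without adjustment edgeR's p was under 0.05 for 3 higher genes and 1 lower gene. DESeq2 called 1 lower gene and 0 higher ones, beside 1344 lower and 1520 higher over the whole table. The share of all genes at an unadjusted p under 0.05 was not counted, so nothing is read from these numbers. Gsk3b, a kinase that SGK1 can phosphorylate, had the smallest p, with 104.6 ± 6.71 CPM in ff and 134.3 ± 6.40 in dd (edgeR adjusted p = 0.0857). Tsc22d3, a glucocorticoid-induced regulator of ENaC, had 75.2 and 93.8 CPM in ff and 102.8 and 144.5 in dd and did not pass (edgeR adjusted p = 0.158). Nedd4, the nearest relative of Nedd4l, stood at 1365 ± 54.6 CPM in ff against 1178 ± 8.58 CPM in dd, with an edgeR adjusted p of 0.297. In FPKM Nedd4 was 22.1 and 20.4 times as high as Nedd4l in ff and 19.8 and 21.9 times as high in dd.

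Proteases that can open ENaC by cleavage, and an inhibitor of them, were among the genes that rose. Prss8 (prostasin), a membrane-anchored activator of ENaC, rose from 45.9 ± 3.41 to 99.2 ± 13.8 CPM (log2 1.11, SE 0.13, edgeR adjusted p = 0.024). The transmembrane protease gene Tmprss4 rose from 7.35 ± 0.181 to 17.8 ± 0.485 CPM (log2 1.27). Spint2, an inhibitor of such proteases, rose from 122.7 ± 5.23 to 218.4 ± 11.7 CPM (log2 0.83). These were the calls among 12 tested genes (median 0.21), in libraries where epithelial markers (median 1.01) were higher too. All 3 were lost without ff replicate 1 (edgeR adjusted p from 0.0728 to 0.0816) and dd replicate 2 (0.0521 to 0.0678), and Tmprss4 also without dd replicate 1 (0.0504). Acid-sensing channels, relatives of ENaC that respond to protons, had under 5 CPM in every library except for Asic2. That gene, named after its values were seen, had 10.33 and 10.95 CPM in ff and 23.87 and 12.94 CPM in dd. None of the 4 tested passed edgeR (median −0.51), with 0 higher and 1 lower at an unadjusted p under 0.05 and no call by DESeq2. Here too the share of all genes at that unadjusted p was not counted, and nothing is read from these numbers. The smallest p belonged to Asic3, read 33 and 38 times in ff against 14 and 13 times in dd (edgeR adjusted p = 0.111).

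The 13 other sodium pump subunit and FXYD genes tested had a median of 0.07. A gene called among them was Atp1a4, known from sperm and named here after its values were seen. It was read 0 times and 1 time in ff against 24 and 62 times in dd, and passed the filter only through its dd counts. The ratio of dd to ff was 102.8, with a 95% interval of 18 to 4110 for counting error only. Because Atp1a4 was picked for this difference, nothing is read from the interval or the call. The call was lost without ff replicate 1 or dd replicate 2. The epithelial markers (median 1.01) were higher in the same libraries.

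Among 22 tested chloride channels and chloride loaders the median was −0.01, and 3 genes rose, beside 4.52% called higher among all tested genes. Clca1, a secreted regulator of calcium-activated chloride channels, was read 11 and 34 times in ff against 2032 and 1261 times in dd (log2 6.49, or 5.86 and 7.57 when ff replicate 1 or 2 was dropped, and 5.88 when dd replicate 1 was). Clic3 rose from 2.33 ± 0.79 to 8.70 ± 1.42 CPM (log2 1.90), and Ano9, of the anoctamin family, from 3.68 ± 0.195 to 9.26 ± 0.585 CPM (log2 1.33). Slc12a2, the cotransporter that loads epithelial cells with chloride for CFTR, stood at 176.4 and 128.3 CPM in ff against 133.2 and 127.8 CPM in dd, without a call (edgeR adjusted p = 0.429). All 3 calls were lost without ff replicate 1 (edgeR adjusted p from 0.0563 to 0.106). Ano9 was also lost without ff replicate 2 (0.0597), and Ano9 and Clic3 without dd replicate 1 (0.0628 to 0.0646) and dd replicate 2 (0.0842 to 0.1).

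Of 9 tested potassium channel genes, which set the driving force for sodium uptake and chloride secretion, Kcnk1 rose from 67.8 ± 4.59 to 133.4 ± 6.09 CPM (log2 0.98) and Kcnq1 from 6.93 ± 0.501 to 19.8 ± 4.47 CPM (log2 1.51). The median of this list was 0.96. Both calls were lost without ff replicate 1 (edgeR adjusted p of 0.0655 to 0.0999) and dd replicate 2 (0.0521 to 0.0663), and Kcnq1 without ff replicate 2 (0.0528). Among 11 partners of CFTR traffic (median 0.19), Ezr, the membrane-to-actin linker ezrin, rose from 236.0 ± 14.0 to 453.4 ± 42.7 CPM (log2 0.94). The scaffold gene Shank2 rose from 19.4 ± 4.09 to 37.5 ± 4.22 CPM (log2 0.95). Both were lost without ff replicate 1 (edgeR adjusted p of 0.0907 to 0.121) and dd replicate 2 (0.0685 to 0.133). Shank2 was also lost without dd replicate 1 (0.0799), with upper quartile factors (0.052), with library size alone (0.0549) and with a filter of 1 CPM in 2 libraries (0.0502). For these lists too, epithelial markers (median 1.01) were higher in the same libraries.

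**Figure D5:**
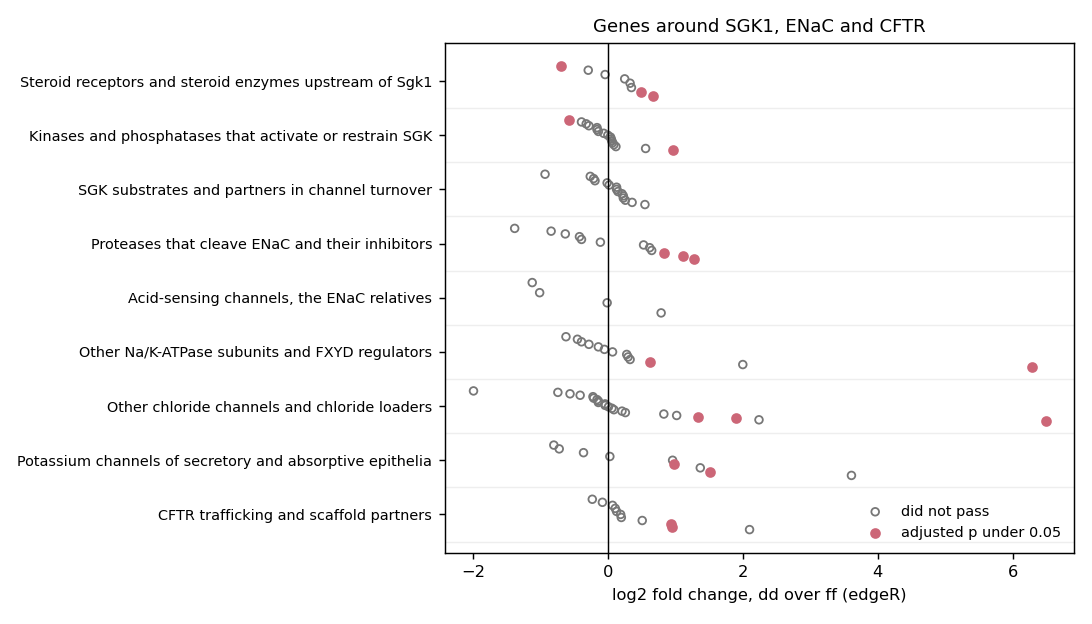
Log2 fold change of dd over ff for the 111 tested genes of 9 lists, 1 point per gene, with filled points for an edgeR adjusted p under 0.05. Called genes lie right of 0 except Hsd11b2 and Inpp5d, and the point of Atp1a4 beyond 6 is a fitted value resting on 1 count in ff.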

How the data were processed

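RNA of whole uteri was sequenced by the submitters (TRIzol extraction and an Illumina TruSeq kit per the labels' protocols). STAR, edgeR and mm10 are named in the submitters' processing notes, without versions. The sources used here do not name the read counter, the annotation or the use of strand. The deposited counts are whole reads per gene symbol, per the file headers and values. In ff means, the deposited FPKM equalled TMM-scaled CPM per kilobase of merged GENCODE M21 exons within 5% for 99.9% of 12313 genes. These genes had at least 5 CPM in ff, and the dd FPKM were not part of this check. No table of protein sequences was used.

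Counts were compared with edgeR 4.0.16 (R 4.3.3): TMM, filterByExpr, glmQLFit and glmQLFTest, Benjamini-Hochberg adjustment over all 18530 tested genes, calls at an adjusted p under 0.05, 2 libraries per group. The script was tested on simulated data. CPM use TMM-scaled library sizes, given per library or as mean ± SD. SE is the size of the log2 fold change divided by the square root of edgeR's quasi-likelihood F statistic. Within ff and within dd the 2 libraries differed beyond counting noise (chi-square per degree of freedom 32.0 and 32.6). Whether replicates are separate animals is not said in the labels. A p-value therefore reflects only how these samples spread, which may be technical. Intervals and floors cover counting error only.

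The 9 genes and all lists were chosen with earlier results of these data known. Named by rule were Mapk14, up to 4 called genes of each list whose higher group averaged 5 CPM or more (or the smallest p), the 5 genes most like Sgk1, and Nr3c1, Nr3c2, Pgr, Hsd11b2, Nedd4, Slc12a2, Prss8 and Tsc22d3. The result for 1 further gene is not reported here. Genes chosen otherwise are said to be so. Marker lists of gland, myometrium, red cells and oviduct had medians of −2.44, 0.29, 1.68 and 1.08 (1, 1, 4 and 2 called). The gland markers summed to 294.1 and 93.49 CPM in ff and to 92.05 and 94.45 CPM in dd, so on the sum only ff replicate 1 stood apart. The sum does not show each gene: 2 of the 6 gland markers, Prss28 and Prss29, had no count in either dd library. The 1 gland marker called was lower in dd. The settings varied were leaving out each library, a replicate block, DESeq2 size factors, upper quartile factors and library size alone. Also varied were no filter, a minimum of 1 CPM in 2 libraries and the Wald test of DESeq2 1.42.0. Levels were also ranked by CPM per kilobase of merged exons, the length behind the deposited FPKM. Ranks per kilobase of the longest coding transcript were added after seeing the data.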

Additional observations from a re-analysis of the deposited data

How the results depend on the processing

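Over the whole table the 838 higher and 716 lower calls became 1584 and 1363 without a filter and 1520 and 1344 with DESeq2, and with 1 library left out they ranged from 62 to 726 and from 28 to 472, lowest without ff replicate 1. Among the pathway genes the 15 higher calls became 23 without a filter and ranged from 0 to 14 with 1 library left out. The 2 lower calls became 8 without a filter, 7 with DESeq2 and 0 with the replicate block, and ranged from 0 to 5 with 1 library left out. With 1 library left out the spread of the other group stood in for the lone library's, and fewer samples leave less power. The replicate block gave 878 higher and 653 lower calls over the whole table and 15 higher pathway calls, and under it Pgr (edgeR adjusted p = 0.0652), Hsd11b2 (0.0513) and Inpp5d (0.0752) were not called. Same-numbered libraries did not deviate together (correlation 0.00873), so the numbers are not taken as pairs. Fold changes of Atp1a4, of the genes most like Sgk1 and of Krt19 were not followed across settings. Among the named genes that were followed, no called gene changed sign under the settings run. The log2 differences of Sgk1, Scnn1a and Cftr were at least 1.81 in all settings run. Ranks by CPM per kilobase of merged exons could hardly differ from those by FPKM, since the deposited FPKM divide by the same length. The longest coding transcript moved the ranks of Sgk3, Nedd4l, Scnn1a and Scnn1b. Depth limits Scnn1g and Sgk2.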
